A study of Mus musculus with 24 samples.

Results

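Bone marrow-derived macrophages (BMDMs) were exposed to medium conditioned by KEAP1 KO or by NRF2 KO Lewis lung carcinoma cells (LL2, a murine lung cancer line), with vehicle and no drug. The comparison used 6 of the 24 RNA sequencing libraries of the series, with 3 libraries labelled KEAP1 KO/vehicle and 3 labelled NRF2 KO/vehicle, and took in every gene that passed a filter on low values. All BMDMs came from C57BL/6 mice and were grown with M-CSF at 20 ng/mL, and no gene was edited in the macrophages. The knockouts, made by CRISPR, were in the tumor cells that conditioned the medium for 48 h. BMDMs then received 75% conditioned medium (CM) in Complete-DMEM, the plain growth medium, for 24 h. Control media without tumor cells and CM of WT LL2 cells, both with vehicle, gave 2 reference groups of 3 libraries each, called media/vehicle and WT/vehicle. The 3 libraries of a knockout carry a single line name in the labels, so an effect of the edited gene and one of the edited line cannot be told apart. The study describes the libraries of a group as independent samples, but neither it nor the labels tie them to separate mice. P-values and SEs rest on a spread pooled within the 8 groups of all 24 libraries, not on that of the 6 compared libraries alone.

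KEAP1 is the adaptor that marks the transcription factor NRF2 for degradation. Without KEAP1 a tumor cell keeps NRF2 active, and without NRF2 it cannot switch on the antioxidant and metabolic genes that NRF2 controls. Macrophages read the secreted products of tumor cells. The cytokines IL-4 and IL-13 act through the transcription factor STAT6 and turn on an alternative activation programme that includes arginase, chitinase-like proteins, lectins and chemokines. SREBP transcription factors turn on sterol and fatty acid synthesis. Interferons act through STAT proteins and turn on antiviral and antigen presentation genes.

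Values are TPM, transcript abundances scaled for transcript length and to 1 fixed total per library, so levels of different genes can be set beside each other, and the sequencing depth is unknown. The third NRF2 KO/vehicle library stood apart. It listed 15702 genes above 0, against 18332 to 18625 in the other 5 libraries compared, and correlated with the other libraries of its own group at 0.903 and 0.909 (Pearson's r across genes). Pairs within the KEAP1 KO/vehicle group correlated at 0.98 to 0.991, and the other NRF2 KO/vehicle pair at 0.986. The 6 transcripts followed for RNA quality and stress, which include mitochondrial messages, summed to 25900 TPM in that library and to 6810 to 9090 TPM in the other 5. Results that lost their call without it are named beside their values, and its part in them was not tested further.

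Of 13661 genes tested, 1205 (8.82%) differed between KEAP1 KO/vehicle and NRF2 KO/vehicle BMDMs at an adjusted p under 0.05 (limma, two-sided, Benjamini-Hochberg over all tested genes). With KEAP1 KO CM, 770 genes (5.64%) were higher and 435 (3.18%) were lower. The median log2 fold change of all tested genes was 0, and the log2 fold change was 1 or more in size for 377 of the called genes. At an unadjusted p under 0.05 in limma 3399 of the 13661 genes differed, the background for the unadjusted counts below. Without the third NRF2 KO/vehicle library, 998 of 13602 genes were called (7.34%), of which 646 were higher (4.75%) and 352 lower (2.59%). Of the 1205 genes, 751 were still called then, and the 1202 that were still tested kept their direction. The number of calls depended on the libraries in the fit. It was 702 with the 12 vehicle libraries and 129 with the 6 compared libraries alone. The 2 groups did not overlap in 3338 genes (24.4%), of which 1896 were higher (13.9%) and 1442 lower (10.6%).

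The 12 genes with the largest rises were led by products of alternatively activated macrophages. Retnla, which encodes the secreted protein RELMα and lies at chr16:48662895-48664824 on the plus strand of GRCm39, was at 1504, 1390 and 1883 TPM in the KEAP1 KO/vehicle libraries. It was listed at 0 in all 3 NRF2 KO/vehicle libraries (adjusted p = 4.8e-19), as it was in the 3 media/vehicle libraries, and no fold is given. Arg1 (chr10:24791118-24803817, minus strand) encodes arginase 1, which splits arginine into ornithine and urea. Its level was 947, 936 and 1121 TPM with KEAP1 KO CM and 0.548, 0.0532 and 1.29 TPM with NRF2 KO CM. The log2 fold change, on the log2(TPM + 1) scale used for every fold here, was 9.25 ± 0.21 (n = 3 per group, adjusted p = 1.3e-16). The ± value, here and below, is the SE from the spread pooled over all 24 libraries. Over the alternative runs the adjusted p of limma was at most 4e-06 for Retnla and 0.00022 for Arg1. Both genes were therefore abundant in every KEAP1 KO/vehicle library and near or at 0 in every NRF2 KO/vehicle library.

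Chil3, which encodes the chitinase-like protein Ym1, was at 592, 592 and 1196 TPM with KEAP1 KO CM and at 0.966, 2.43 and 1.66 TPM with NRF2 KO CM (log2 fold change 8.11 ± 0.44, adjusted p = 1.8e-10). Its close relative Chil4 was at 7.98, 7.99 and 8.26 TPM with KEAP1 KO CM and was listed at 0 in the 3 NRF2 KO/vehicle libraries (adjusted p = 9.9e-13). The 2 paralogs are similar in sequence, and reads of one can be assigned to the other. Rnase2a, of the eosinophil-associated ribonuclease family, was at 215, 250 and 96.1 TPM and was also listed at 0 in the 3 NRF2 KO/vehicle libraries (adjusted p = 1e-13). The same caution on related copies holds for Rnase2a and for the lectin pair Mgl2 and Clec10a.

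**Figure D1:**
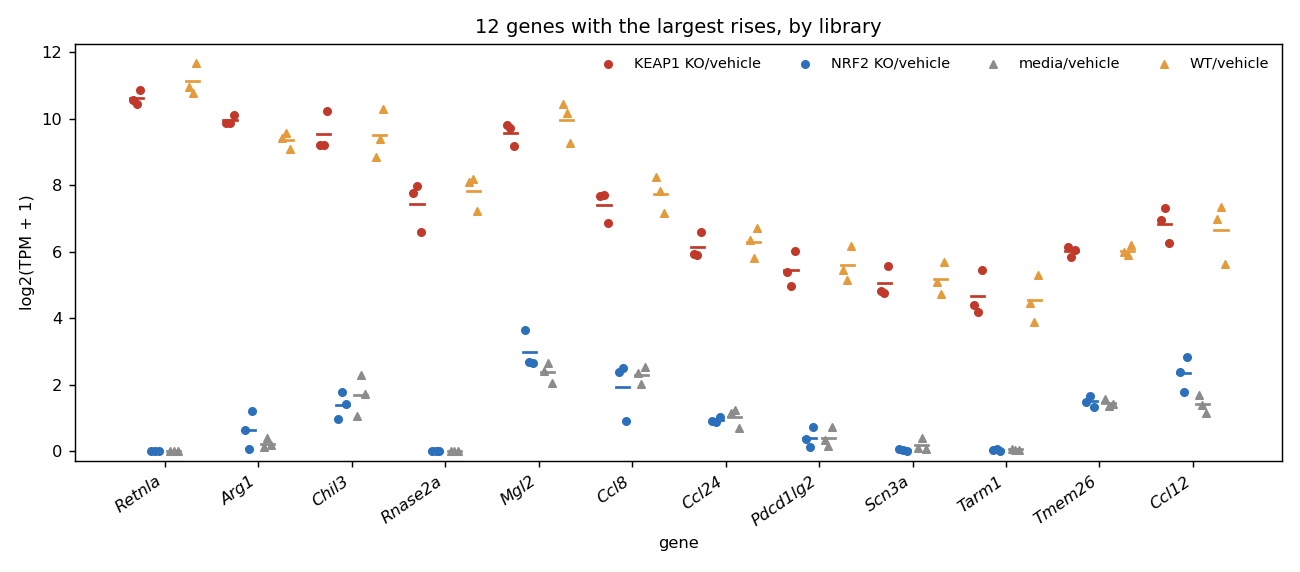
The deposited values of the 12 genes with the largest rises are plotted as log2(TPM + 1) for each library of KEAP1 KO/vehicle, NRF2 KO/vehicle, media/vehicle and WT/vehicle BMDMs, with a line at each group's mean. The 3 KEAP1 KO/vehicle points of each gene lie above its 3 NRF2 KO/vehicle points, because only genes without overlap were chosen. Retnla and Rnase2a are at 0 in the NRF2 KO/vehicle and media/vehicle groups.

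STAT6 and other STAT proteins bind spaced palindromes. RefSeq promoter windows (GRCm38.p6, 250 bases before to 50 after the start) were therefore searched on both strands for TTCNNNNGAA, the STAT6 type, and for TTCNNNGAA, the spacing of other STAT proteins. Both motifs are their own reverse complements, and sites of both can share bases. TTCNNNNGAA was present in 2284 of 32851 windows (6.95%) and TTCNNNGAA in 2726 (8.3%). Of the 12 genes with the largest rises, 9 had a window, and 3 of these held TTCNNNNGAA (Pdcd1lg2, Retnla and Tmem26) and 1 held TTCNNNGAA (Chil3). Of the 18 alternative activation genes that were called, 13 had a window, and 3 held each motif, with Ccl17 holding both. The matches below are shown with the bases around them because these genes are among the 12 largest rises. The motif is in capitals, and positions count from the start, with -1 as the last base before it. The windows shown are chr16:48842414-48842523 (plus strand, motif at -145 to -136) for Retnla, chr19:29410787-29410896 (plus strand, motif at -82 to -73) for Pdcd1lg2, chr10:68723496-68723745 (plus strand, motifs at -227 to -218 and -41 to -32) for Tmem26 and chr3:106167678-106167786 (minus strand, motif at -172 to -164) for Chil3. A match describes the letters and shows no binding.
Retnla: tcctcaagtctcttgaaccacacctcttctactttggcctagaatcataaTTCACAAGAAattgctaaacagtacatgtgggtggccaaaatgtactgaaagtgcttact
Pdcd1lg2: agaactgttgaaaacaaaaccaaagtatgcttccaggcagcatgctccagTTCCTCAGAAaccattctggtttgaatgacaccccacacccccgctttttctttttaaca
Tmem26: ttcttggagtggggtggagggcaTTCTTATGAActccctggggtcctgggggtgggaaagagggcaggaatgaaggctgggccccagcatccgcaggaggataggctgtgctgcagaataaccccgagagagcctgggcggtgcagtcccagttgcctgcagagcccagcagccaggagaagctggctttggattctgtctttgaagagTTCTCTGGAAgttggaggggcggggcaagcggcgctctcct
Chil3: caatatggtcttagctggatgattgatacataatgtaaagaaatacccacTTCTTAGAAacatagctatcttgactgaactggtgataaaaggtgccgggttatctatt

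Surface proteins and receptors were among the largest rises. Mgl2, a galactose-type lectin receptor, was at 903, 846 and 578 TPM with KEAP1 KO CM and at 11.4, 5.37 and 5.27 TPM with NRF2 KO CM (log2 fold change 6.55 ± 0.45, adjusted p = 6.3e-09). Pdcd1lg2 encodes PD-L2, a ligand of the T cell inhibitory receptor PD-1. Its level was 41.3, 30 and 64.5 TPM against 0.275, 0.0932 and 0.642 TPM (log2 fold change 4.99 ± 0.29, adjusted p = 5.5e-10). Tmem26, a transmembrane protein, was at 69.2, 56.9 and 65.3 TPM against 1.81, 2.15 and 1.52 TPM (log2 fold change 4.47 ± 0.12, adjusted p = 2.1e-15). Scn3a, a voltage-gated sodium channel subunit, was at 27.2, 26.3 and 46.3 TPM against at most 0.044 TPM with NRF2 KO CM (log2 fold change 4.96 ± 0.22, adjusted p = 6.9e-12). Tarm1, a myeloid receptor, was at 20, 17.3 and 42.9 TPM against at most 0.0518 TPM (log2 fold change 4.58 ± 0.52, adjusted p = 6.4e-06). With NRF2 KO CM values near 0, the folds of Pdcd1lg2, Scn3a and Tarm1 depend on the pseudocount. Over the alternative runs they were 3.12 to 6.77, 2.83 to 8 and 2.52 to 7.6. The largest rises were chosen among genes whose groups did not overlap, so the separation of the groups in these genes was set by the choice.

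Of 31 genes listed for alternative activation, 29 were tested. With KEAP1 KO CM 18 rose (62.1%, against 5.64% of all tested genes) and 0 fell (1 at an unadjusted p under 0.05 in limma). The count was 16 without the third NRF2 KO/vehicle library and 13 of 28 in the fit of the 6 compared libraries alone. The median log2 fold change of the 29 was 1.65, against 0 over all tested genes. It includes 3 genes at 0 in every NRF2 KO/vehicle library, and it was 0.83 with a pseudocount of 5. The mannose receptor Mrc1 was at 1173, 1150 and 1213 TPM with KEAP1 KO CM and at 251, 238 and 500 TPM with NRF2 KO CM (log2 fold change 1.88 ± 0.25, adjusted p = 5.1e-05). Clec10a was at 251, 274 and 271 TPM against 53.6, 32.3 and 26.8 TPM (log2 fold change 2.81 ± 0.17, adjusted p = 9e-10). Cdh1, which encodes E-cadherin, an adhesion protein of epithelia and of alternatively activated macrophages, was at 4.23, 5.19 and 4.52 TPM and was listed at 0 in the 3 NRF2 KO/vehicle libraries (adjusted p = 4.3e-11). The 5 epithelial and carcinoma markers, Cdh1 among them, summed to 8.76 to 9.23 TPM with KEAP1 KO CM and to 1.27 to 3.37 TPM with NRF2 KO CM. Both members tested had a positive log2 fold change, and Cdh1 was the one called. Krt19 was at 4.08, 3.65 and 2.01 TPM against 1.96, 3.15 and 1.27 TPM (log2 fold change 0.43 ± 0.27, adjusted p = 0.34), and Epcam was at 0 in all 6 libraries. The part of such cells in the rise of Cdh1 was not tested. The other 11 tested members did not pass, among them Pparg (log2 fold change 0.2, adjusted p = 0.29) and Il1rn (-0.89, adjusted p = 0.53).

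Of 17 members of the IL-4 and IL-13 receptor pathway tested, 5 rose (29.4%, against 5.64% of all tested genes) and 1 fell (5.88%, against 3.18%). Feedback inhibitors were among the rises. Socs1, a suppressor of cytokine signalling induced by STAT proteins, was at 19.1, 18.6 and 28.2 TPM with KEAP1 KO CM and at 0.631, 1.14 and 0.169 TPM with NRF2 KO CM (log2 fold change 3.78 ± 0.21, adjusted p = 1.8e-10). Cish, of the same family, was at 20.5, 21.6 and 29.2 TPM against 0.879, 1.49 and 3.17 TPM (log2 fold change 3.13 ± 0.31, adjusted p = 1.2e-06). Socs2, the third member called, had a log2 fold change of 1.06 ± 0.25 (adjusted p = 0.0097, and 0.071 without the third KEAP1 KO/vehicle library). Il13ra2, a second receptor of IL-13, was at 25.9, 21.5 and 16 TPM against 0.184, 0.16 and 0 TPM (log2 fold change 4.24 ± 0.19, adjusted p = 9.3e-12). Its fold was 2.28 to 6.72 over the alternative runs.

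The shared receptor chain Il4ra was at 141, 137 and 139 TPM with KEAP1 KO CM against 76.7, 75 and 69.6 TPM with NRF2 KO CM (log2 fold change 0.87 ± 0.13, adjusted p = 0.00021). Il13ra1, which pairs with it, was the member that fell, with 11, 12.6 and 6.62 TPM against 17.4, 18.1 and 16.4 TPM (log2 fold change -0.8 ± 0.19, adjusted p = 0.011, and 0.078 without the third KEAP1 KO/vehicle library). Stat6 itself was at 109, 114 and 112 TPM against 135, 130 and 76 TPM, with overlapping groups (log2 fold change -0.02 ± 0.11, adjusted p = 0.93). It was lower with KEAP1 KO CM when the third library of each NRF2 KO group was left out (log2 fold change -0.21, adjusted p = 0.008). The messenger of the cytokine, Il4, was at 14.3, 13.2 and 13.5 TPM against 19.2, 25.2 and 4.2 TPM (log2 fold change 0.04 ± 0.36, adjusted p = 0.96). Its protein in the medium was not measured here.

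CC chemokines, which attract monocytes, eosinophils and T cells, differed in most members. Of 13 tested, 9 rose (69.2%, against 5.64% of all tested genes) and 1 fell (7.69%, against 3.18%) with KEAP1 KO CM. The median log2 fold change was 1.83. Without the third NRF2 KO/vehicle library 2 fell. Ccl8 was at 203, 209 and 115 TPM against 4.19, 4.71 and 0.873 TPM (log2 fold change 5.46 ± 0.34, adjusted p = 1.4e-09). The eosinophil attractant Ccl24 was at 60.3, 58.5 and 96.3 TPM against 0.852, 0.844 and 1.02 TPM (log2 fold change 5.16 ± 0.23, adjusted p = 6.9e-12). Ccl12, which lies beside Ccl8 on chromosome 11, was at 123, 159 and 75.1 TPM against 4.22, 2.43 and 6.17 TPM (log2 fold change 4.46 ± 0.43, adjusted p = 8.6e-07). Ccl6 reached 1691, 1429 and 2746 TPM with KEAP1 KO CM and 374, 377 and 235 TPM with NRF2 KO CM (log2 fold change 2.51 ± 0.25, adjusted p = 1.2e-06).

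Ccl9 and Ccl22 also rose, with log2 fold changes of 2.02 ± 0.28 and 1.72 ± 0.24, although Ccl22 stayed at or under 4.41 TPM. Ccl3, named after its value was seen, was the member that fell: 40.2, 42.2 and 45.9 TPM against 123, 102 and 220 TPM (log2 fold change -1.73 ± 0.25, adjusted p = 0.00013). Of the CXC chemokines, none of 11 tested rose and 2 fell (18.2%, against 3.18% of all tested genes) at an adjusted p under 0.05 in limma. At an unadjusted p under 0.05 these counts were 1 and 3, and 4 of the 11 had a positive log2 fold change. The 2 that fell became 1 without the first or second KEAP1 KO/vehicle library or the third NRF2 KO/vehicle library. Cxcl5, a neutrophil attractant, was at 39.3, 38.1 and 19.8 TPM with KEAP1 KO CM and at 24.6, 13.9 and 25.9 TPM with NRF2 KO CM, so the groups overlapped (log2 fold change 0.52 ± 0.49, adjusted p = 0.52).

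Arginine transport rose together with arginase. Of 15 arginine and polyamine genes tested, 5 rose (33.3%, against 5.64% of all tested genes) and 0 fell. These counts were 6 and 0 at an unadjusted p under 0.05 in limma. Slc7a2, a transporter that brings arginine into macrophages, was at 62.7, 52.1 and 62.6 TPM with KEAP1 KO CM and at 6.04, 7.51 and 5.03 TPM with NRF2 KO CM (log2 fold change 3.03 ± 0.26, adjusted p = 1.5e-07). The related carrier Slc7a1 was at 13.9, 13.9 and 9.21 TPM against 6.18, 7.7 and 4.06 TPM (log2 fold change 0.91 ± 0.14, adjusted p = 0.00031). Nos2, the enzyme that turns arginine into nitric oxide in classically activated macrophages, was at or under 0.223 TPM in all 6 libraries (log2 fold change 0.04 ± 0.49, adjusted p = 0.97). The inflammatory cytokine Il6 was at or under 0.594 TPM in all 6 (log2 fold change 0.42 ± 0.44, adjusted p = 0.57).

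**Figure D2:**
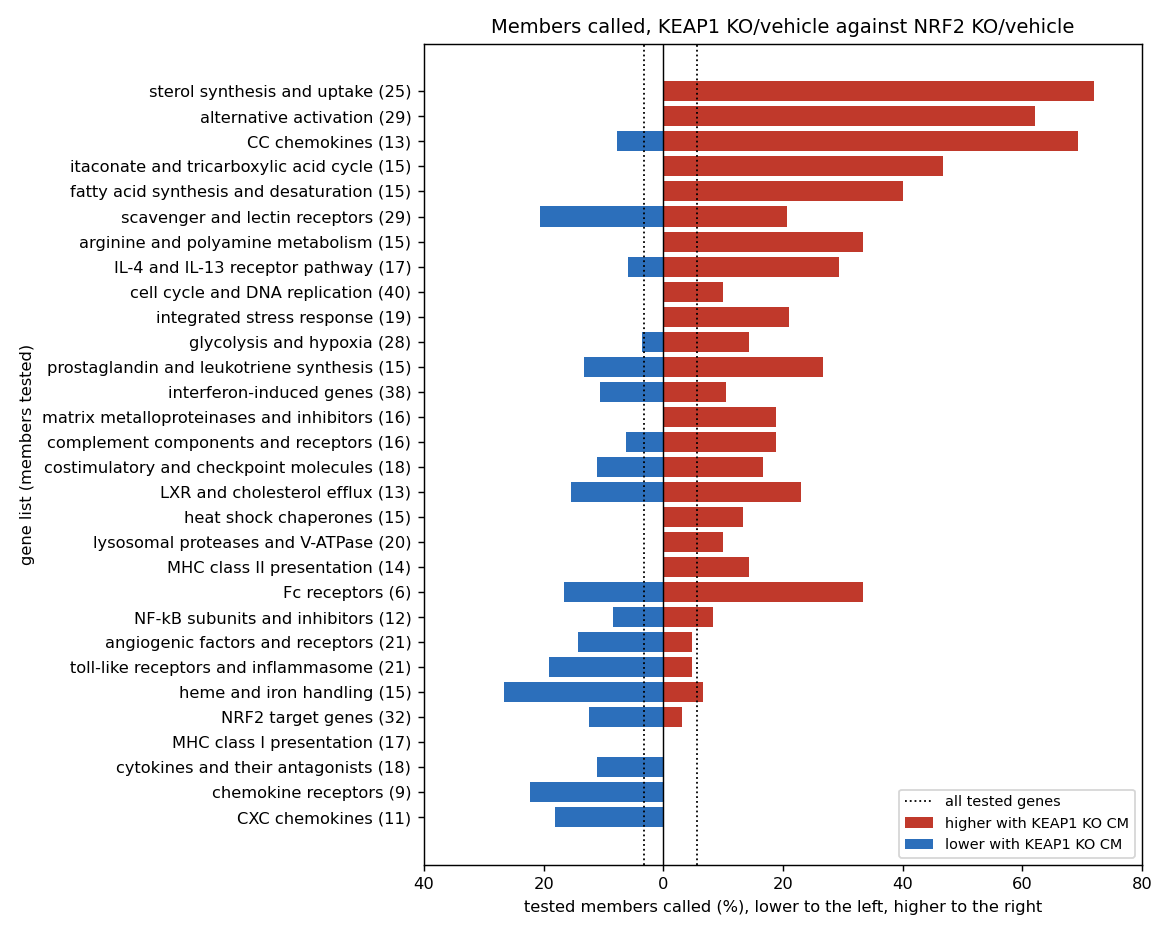
For each of 30 gene lists, bars give the percentage of tested members called higher (right) or lower (left) in KEAP1 KO/vehicle against NRF2 KO/vehicle BMDMs, with the number tested in brackets and dotted lines at the shares over all tested genes (5.64% higher, 3.18% lower). Sterol synthesis and uptake (18 of 25), CC chemokines (9 of 13) and alternative activation (18 of 29) have the longest bars to the right.

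With KEAP1 KO CM, transcripts of sterol synthesis rose along most of the pathway, by smaller folds than the alternative activation genes. Of 25 members tested, 18 rose (72%, against 5.64% of all tested genes) and 0 fell (23 and 0 at an unadjusted p under 0.05 in limma). All 25 had a positive log2 fold change, and the median was 0.70. Without the third NRF2 KO/vehicle library the count was again 18. In the fit of the 6 compared libraries alone 2 members were called. Fdps makes farnesyl diphosphate, the branch point toward sterols, and was at 259, 294 and 235 TPM against 109, 132 and 63.9 TPM (log2 fold change 1.38 ± 0.16, adjusted p = 7.3e-06). Mvd, which completes the mevalonate steps before it, was at 73.7, 82.5 and 71 TPM against 31.7, 32.9 and 12.1 TPM (log2 fold change 1.62 ± 0.24, adjusted p = 0.00018).

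Acat2, which makes acetoacetyl-CoA, had a log2 fold change of 1.25 ± 0.17 (adjusted p = 7.8e-05). Dhcr7, which carries out a final reduction to cholesterol, had a log2 fold change of 1.13 ± 0.14 (adjusted p = 2.9e-05). The groups did not overlap for any of these 4 enzymes, as for 21 of the 25 members tested and 24.4% of all tested genes. The 4 have the smallest p of the list, so their separation was partly set by the choice. Of the regulators in the list that the study names, Srebf2, the transcription factor of sterol synthesis, did not pass. It was at 94.9, 103 and 105 TPM against 83.2, 88.9 and 71.2 TPM (log2 fold change 0.28 ± 0.11, adjusted p = 0.13). Its escort Scap had a log2 fold change of 0.01 ± 0.13 (adjusted p = 0.96). Another regulator in the list, not reported here by name, was among the members called higher. The sterol response motif TCACNCCAC was in 1.24% of promoter windows and in 1 of the 11 called sterol genes that had a window, Hmgcs1.

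In fatty acid synthesis, 6 of 15 members rose (40%, against 5.64% of all tested genes) and 0 fell, with a median log2 fold change of 0.57. These counts were 8 and 0 at an unadjusted p under 0.05 in limma. Scd2, a desaturase that makes monounsaturated fatty acids, was at 295, 359 and 202 TPM with KEAP1 KO CM and at 89.4, 135 and 80.1 TPM with NRF2 KO CM (log2 fold change 1.44 ± 0.19, adjusted p = 4e-05). Acly, which supplies cytosolic acetyl-CoA, and Fasn, the fatty acid synthase, had log2 fold changes of 0.75 ± 0.11 (adjusted p = 0.00023) and 0.89 ± 0.25 (adjusted p = 0.027). The adjusted p of Fasn was 0.09 or 0.11 without the first or second KEAP1 KO/vehicle library and 0.062 without the first NRF2 KO/vehicle library, and the count of 6 became 3 without the first KEAP1 KO/vehicle library. Srebf1, the regulator of this branch, rose from 57.2, 62.4 and 39.5 TPM to 80.4, 82.4 and 82.7 TPM (log2 fold change 0.6 ± 0.12, adjusted p = 0.0029). None of the 6 was called in the fit of the 6 compared libraries alone (0 of 15 by limma, and 7 at an unadjusted p under 0.05).

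**Figure D3:**
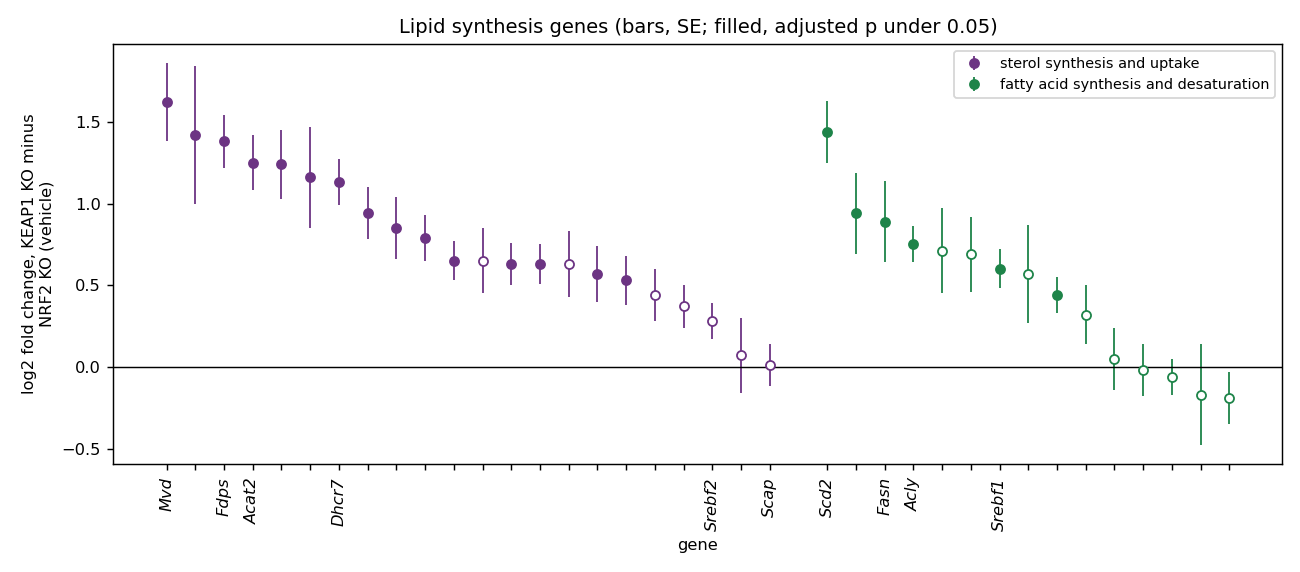
Log2 fold changes of KEAP1 KO/vehicle against NRF2 KO/vehicle BMDMs are plotted for 22 of the 25 sterol genes and the 15 fatty acid genes tested, with names for the genes given in the text, with bars for the SE and filled points for an adjusted p under 0.05. All 22 sterol genes plotted lie above 0, and 15 are filled; in the fatty acid list 6 of 15 are filled.

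The median log2 fold change of 15 tricarboxylic acid cycle and itaconate genes was 0.39, with 13 positive values. Of the 15, 7 rose (46.7%, against 5.64% of all tested genes) and 0 fell (13 and 0 at an unadjusted p under 0.05 in limma). The count was 11 without the first NRF2 KO/vehicle library, 3 of 14 in the fit of the 12 vehicle libraries and 0 of 14 in that of the 6 compared libraries by limma (7 at an unadjusted p under 0.05). Pdha1, a subunit of pyruvate dehydrogenase, was at 105, 108 and 84.7 TPM against 71.2, 75 and 63.9 TPM (log2 fold change 0.45 ± 0.08, adjusted p = 0.0011). Slc25a1, which exports citrate for lipid synthesis, was at 123, 131 and 107 TPM against 85.4, 96.6 and 70.3 TPM (log2 fold change 0.48 ± 0.09, adjusted p = 0.0011). In the integrated stress response list 4 of 19 rose (21.1%, against 5.64% of all tested genes) and 0 fell (6 and 0 at an unadjusted p under 0.05), and 2 rose without the first or the second KEAP1 KO/vehicle library. They included its transcription factor Atf4 (194, 204 and 172 TPM against 117, 144 and 60.6 TPM, log2 fold change 0.87 ± 0.16, adjusted p = 0.0017) and the mitochondrial folate enzyme Mthfd2 (log2 fold change 1.28 ± 0.23, adjusted p = 0.00091). Of 40 cell cycle genes, 4 rose (10%, against 5.64% of all tested genes) and 0 fell (13 and 0 at an unadjusted p under 0.05). A positive log2 fold change was found in 36, with a median of 0.25 over the list. The count of 4 was 1 or 2 without the first or second KEAP1 KO/vehicle library and 7 without the second NRF2 KO/vehicle library.

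Other receptors and enzymes rose outside these groups. Fcgr2b, the inhibitory Fc receptor, was at 1082, 857 and 1377 TPM with KEAP1 KO CM and at 145, 140 and 388 TPM with NRF2 KO CM (log2 fold change 2.4 ± 0.38, adjusted p = 0.00034). Fcgrt, the neonatal Fc receptor that recycles antibody, had a log2 fold change of 1.3 ± 0.3 (adjusted p = 0.008). It was 0.77 without the third NRF2 KO/vehicle library, and the call was lost in the fit of the 12 vehicle libraries (adjusted p = 0.056). Ptgs1, which encodes cyclooxygenase 1, was at 107, 93.2 and 115 TPM against 27.6, 24 and 20.4 TPM (log2 fold change 2.05 ± 0.29, adjusted p = 1e-04). Itgax, the integrin chain CD11c, had a log2 fold change of 1.08 ± 0.19 (adjusted p = 0.00081). The checkpoint ligand Cd274, which encodes PD-L1, was at 43.8, 33.8 and 55.6 TPM against 21, 16.1 and 23.3 TPM (log2 fold change 1.05 ± 0.3, adjusted p = 0.034), a smaller fold than that of PD-L2. Its adjusted p was 0.095 or 0.15 without the first or the third KEAP1 KO/vehicle library and 0.085 without the second NRF2 KO/vehicle library. Costimulatory Cd40 had a log2 fold change of 1.28 ± 0.27 (adjusted p = 0.004).

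The 12 largest falls with KEAP1 KO CM were genes of varied function that were expressed in both NRF2 KO/vehicle and media/vehicle BMDMs. Cdkn1c, a cell cycle inhibitor, was at 12.2, 15.2 and 9.11 TPM with KEAP1 KO CM and at 116, 98.4 and 104 TPM with NRF2 KO CM (log2 fold change -3.08 ± 0.3, adjusted p = 1.1e-06). Cx3cr1, the fractalkine receptor of monocytes and tissue macrophages, was at 0.338, 0.495 and 0.203 TPM against 11.1, 15.9 and 5.36 TPM (log2 fold change -3.02 ± 0.36, adjusted p = 1.6e-05). Its fold was -4.56 to -1.48 over the alternative runs. Clec12a, an inhibitory lectin receptor, was at 52.1, 51.7 and 28.5 TPM against 234, 191 and 340 TPM (log2 fold change -2.55 ± 0.27, adjusted p = 2.3e-06).

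Fcrl1, an Fc receptor-like protein, was at 2.08, 1.94 and 1.43 TPM against 16.1, 13 and 11.3 TPM (log2 fold change -2.37 ± 0.13, adjusted p = 1.8e-10). Pcp4l1 was at 12.5, 14.2 and 10 TPM against 69.4, 51.2 and 68.5 TPM (log2 fold change -2.31 ± 0.16, adjusted p = 4.6e-09). Adra1a, an adrenergic receptor, and Dio2, which activates thyroid hormone, had log2 fold changes of -2.15 ± 0.23 and -2.06 ± 0.29. The largest falls were chosen among genes whose groups did not overlap, so the separation of the groups in these genes was set by the choice. The calls of Clec4e, which senses mycobacterial glycolipid, and of Gpr34, a lysophospholipid receptor, were less stable. Their values in the third NRF2 KO/vehicle library were 23.3 and 25.5 TPM against 11.9 and 6.58, and 5.9 and 7.04 TPM, in the other 2. Without it the log2 fold change of Clec4e was -1.58 (from -2.08) with an adjusted p of 0.17, and that of Gpr34 was -1.31 (from -1.98) with an adjusted p of 0.2. The call of Clec4e was also lost without any 1 KEAP1 KO/vehicle library (adjusted p of 0.073 to 0.12), and that of Gpr34 without the first or the second (0.13 and 0.14).

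**Figure D4:**
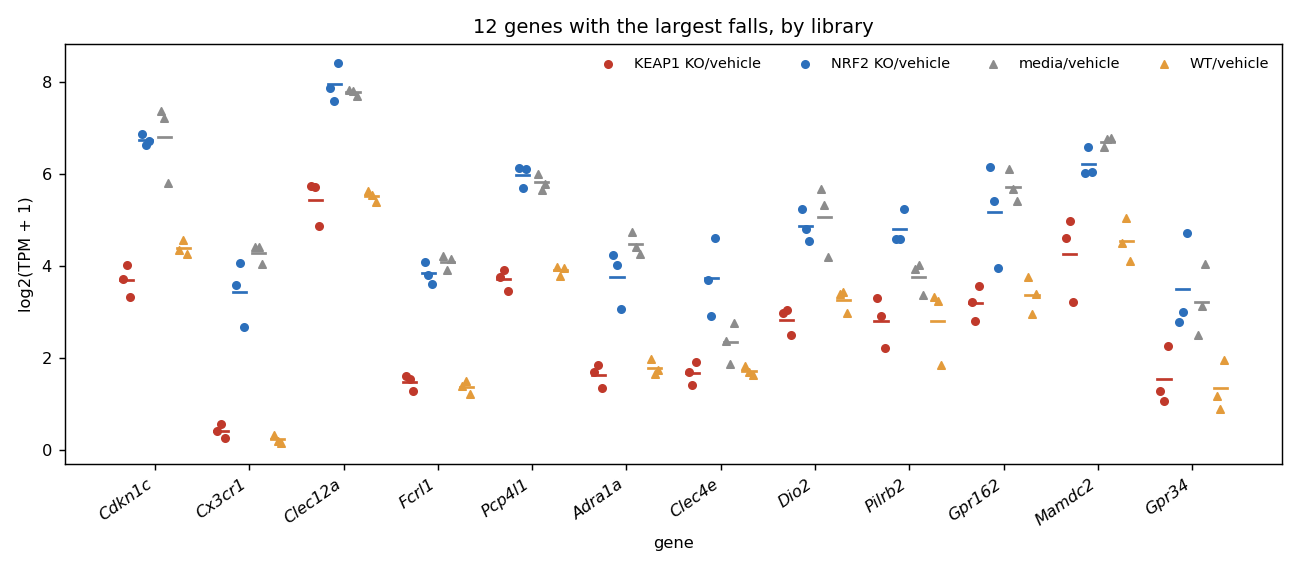
The deposited values of the 12 genes with the largest falls are plotted as log2(TPM + 1) for each library of the same 4 groups, with a line at each group's mean. The 3 KEAP1 KO/vehicle points of each gene lie below its 3 NRF2 KO/vehicle points, because only genes without overlap were chosen. In Clec4e and Gpr34 the highest NRF2 KO/vehicle point is the third library.

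Lectin and scavenger receptors split, with 6 of 29 tested members higher (20.7%, against 5.64% of all tested genes) and 6 lower (20.7%, against 3.18%). Their median log2 fold change was -0.03. The 6 lower members became 2, 1 and 2 without the first or second KEAP1 KO/vehicle library or the third NRF2 KO/vehicle library. Of 21 toll-like receptor and inflammasome genes 1 was higher (4.76%, against 5.64% of all tested genes) and 4 were lower (19%, against 3.18%). There were 2 higher without the first or the second NRF2 KO/vehicle library and 2 lower without the first or the second KEAP1 KO/vehicle library. Tlr2, a receptor of bacterial lipopeptides, was at 13.8, 12.1 and 14.5 TPM with KEAP1 KO CM and at 57.2, 48.5 and 42.9 TPM with NRF2 KO CM (log2 fold change -1.83 ± 0.27, adjusted p = 0.00015). Tlr13, which senses bacterial ribosomal RNA, was at 70.2, 66.9 and 68.6 TPM against 153, 142 and 192 TPM (log2 fold change -1.26 ± 0.19, adjusted p = 0.00015). Tlr4, the lipopolysaccharide receptor, was the member that rose, with 87.7, 89.6 and 91 TPM against 48.9, 44.6 and 52.7 TPM (log2 fold change 0.83 ± 0.14, adjusted p = 0.00082). Nfkbiz, an inducible regulator of NF-kB targets, was at 4.2, 5.51 and 3.97 TPM against 14, 15.5 and 18.1 TPM (log2 fold change -1.63 ± 0.19, adjusted p = 7.5e-06). Icosl, a costimulatory ligand, had a log2 fold change of -1.09 ± 0.15 (adjusted p = 5.5e-05).

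Of 15 heme and iron genes tested, 1 rose (6.67%, against 5.64% of all tested genes) and 4 fell (26.7%, against 3.18%). Tfrc, the transferrin receptor, was at 210, 220 and 242 TPM with KEAP1 KO CM and at 60.5, 82.2 and 54.6 TPM with NRF2 KO CM (log2 fold change 1.73 ± 0.17, adjusted p = 9.2e-07). Slc40a1, the iron exporter ferroportin, was at 28, 18.8 and 43 TPM against 142, 93.1 and 74.3 TPM (log2 fold change -1.81 ± 0.25, adjusted p = 8.9e-05, and 0.097 in the fit of the 6 compared libraries). Fth1, the ferritin heavy chain, had a log2 fold change of -0.79 ± 0.19 (adjusted p = 0.011). Without the second KEAP1 KO/vehicle library 2 fell and the adjusted p of Fth1 was 0.052, and it was 0.5 after quantile normalization and 0.52 with no filter.

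A list of 32 NRF2 targets and regulators, among them Nfe2l2, Keap1 and Bach1, was tested within the macrophages themselves. Of these, 1 rose (3.12%, against 5.64% of all tested genes), 4 fell (12.5%, against 3.18%) and 27 were not called. The median log2 fold change was -0.10, and Nfe2l2 was among the 4 that fell. The 4 that fell became 1 without the second KEAP1 KO/vehicle library. The 1 that rose became 0 without the second or the third KEAP1 KO/vehicle library and 2 without the first or the second NRF2 KO/vehicle library. Cat, which encodes catalase, was at 181, 177 and 179 TPM with KEAP1 KO CM and at 357, 328 and 562 TPM with NRF2 KO CM (log2 fold change -1.21 ± 0.2, adjusted p = 0.00056). Gstm1, a glutathione transferase, had a log2 fold change of -0.76 ± 0.18 (adjusted p = 0.0099), and Tkt, a transketolase, had one of 0.55 ± 0.14 (adjusted p = 0.02). Without the second KEAP1 KO/vehicle library the adjusted p of Gstm1 was 0.06, and without any 1 of the KEAP1 KO/vehicle libraries that of Tkt was 0.05 to 0.069. The log2 fold change of Tkt was 0.3 without the third NRF2 KO/vehicle library. Nfe2l2, the gene of NRF2, was at 186, 173 and 169 TPM against 286, 242 and 459 TPM (log2 fold change -0.88 ± 0.26, adjusted p = 0.04), and without the third NRF2 KO/vehicle library the log2 fold change was -0.54 and the adjusted p was 0.2, and without any 1 KEAP1 KO/vehicle library it was 0.086 to 0.12. Keap1 was at 39.5, 41 and 39.5 TPM against 39.1, 39.3 and 15.1 TPM (log2 fold change 0.43 ± 0.2, adjusted p = 0.19, and 0.044 without the first NRF2 KO/vehicle library). The BMDMs carried both genes intact, and their levels do not check the knockouts, which were in the tumor cells. Bach1, a repressor of NRF2 targets, had a log2 fold change of 0.22 ± 0.16 (adjusted p = 0.39).

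Interferon-induced genes showed no common direction with vehicle. Of 38 tested, 4 rose (10.5%, against 5.64% of all tested genes) and 4 fell (10.5%, against 3.18%), with a median log2 fold change of -0.17. Cxcl10 was at 0.124, 0.176 and 0.289 TPM with KEAP1 KO CM and at 3.56, 2.05 and 2.39 TPM with NRF2 KO CM (log2 fold change -1.59 ± 0.32, adjusted p = 0.0029, and 0.2 with a pseudocount of 5). Ifit3 and Ifit1, antiviral proteins that bind foreign RNA, had log2 fold changes of -1.65 ± 0.31 (adjusted p = 0.0017) and -1.15 ± 0.28 (adjusted p = 0.013). Without the first KEAP1 KO/vehicle library 2 members fell, and the adjusted p of Ifit1 was 0.061 then and 0.07 without the third NRF2 KO/vehicle library. Without the first NRF2 KO/vehicle library 8 members rose. Stat2, Zbp1, a nucleic acid sensor, and the immunoproteasome subunit Psmb10 were higher, with log2 fold changes of 0.64 ± 0.11, 1.27 ± 0.27 and 1.11 ± 0.27, and the adjusted p of Psmb10 was 0.055 without the third KEAP1 KO/vehicle library and 0.097 in the fit of the 12 vehicle libraries. Its log2 fold change was 0.6 without the third NRF2 KO/vehicle library. Irf1 (log2 fold change 0.1 ± 0.25, adjusted p = 0.83) and Irf7 (log2 fold change 0.46 ± 0.19, adjusted p = 0.15) did not pass. None of 17 MHC class I presentation genes was called by limma (4 at an unadjusted p under 0.05, 3 of them higher). Without the first or the third NRF2 KO/vehicle library 2 were higher, without the third library of each NRF2 KO group 3 were higher, and without the second NRF2 KO/vehicle library 1 was lower. Of 14 MHC class II genes 2 were higher (14.3%, against 5.64% of all tested genes), led by H2-DMa (log2 fold change 1.25 ± 0.27, adjusted p = 0.0058). That count was 1 without the first or the third KEAP1 KO/vehicle library or the second or the third NRF2 KO/vehicle library, and 1 member was lower without the second NRF2 KO/vehicle library.

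The macrophage label was borne out by all 10 macrophage markers, which were detected in every group. Their summed level was 17000 to 20900 TPM with KEAP1 KO CM and 24000 to 27500 TPM with NRF2 KO CM. Of the 10, 1 rose (10%, against 5.64% of all tested genes) and 4 fell (40%, against 3.18%). The 4 that fell became 1 without the second KEAP1 KO/vehicle library and 2 without the first NRF2 KO/vehicle library. The abundant lysozyme gene Lyz2 had a log2 fold change of -0.58 ± 0.17 (adjusted p = 0.038), Aif1 one of -1.01 ± 0.19 (adjusted p = 0.0018) and Adgre1, the surface protein F4/80, one of 0.54 ± 0.17 (adjusted p = 0.047). The adjusted p of Lyz2 was 0.06 and that of Adgre1 0.22 (log2 fold change 0.28) without the third NRF2 KO/vehicle library. Both calls were also lost without the first or the second KEAP1 KO/vehicle library (0.099 and 0.16 for Lyz2, 0.16 and 0.074 for Adgre1), that of Lyz2 without the first NRF2 KO/vehicle library (0.066) and that of Adgre1 without the third KEAP1 KO/vehicle library (0.11). In bulk RNA, fewer cells of a type and less RNA per cell cannot be told apart. Of 15 fibroblast and stroma markers none was called by limma, also at an unadjusted p under 0.05, and they summed to 1610 to 3130 TPM with KEAP1 KO CM and to 1360 to 4300 TPM with NRF2 KO CM. Neutrophil markers summed to 21.9 to 27.5 and 16.5 to 41.7 TPM, with Ly6g and Retnlg at 0 in all 6 libraries. Mast cell and basophil markers summed to 3.49 to 5.72 and 10 to 21.8 TPM, with Fcer1a and Tpsb2 at 0 in all 6, and Kit was lower with KEAP1 KO CM (log2 fold change -1.38 ± 0.34, adjusted p = 0.013, and 0.062 or 0.05 without the first or second KEAP1 KO/vehicle library). T cell markers summed to 5.5 to 7.27 and 14.8 to 17.4 TPM, most of it from Cd4 (4.58, 4.86 and 6.46 TPM against 13.86, 13.11 and 15.8 TPM). Cd4, which some macrophages also express, was lower with KEAP1 KO CM (log2 fold change -1.31 ± 0.17, adjusted p = 4e-05). Cd3e was at 0 in the 3 KEAP1 KO/vehicle libraries and at or under 0.03 TPM with NRF2 KO CM. The part of other cells in the results was not tested.

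BMDMs in WT CM and in control media, which share no library with the 2 knockout groups, set the scale. Retnla was at 1990, 1753 and 3262 TPM in WT/vehicle and at 0 in media/vehicle, and Arg1 was at 681, 765 and 544 TPM and at 0.0884, 0.301 and 0.128 TPM. Cx3cr1 was at 0.268, 0.155 and 0.121 TPM in WT/vehicle and at 20.3, 20.4 and 15.6 TPM in media/vehicle. For these 3 genes the NRF2 KO/vehicle values lay on the side of media/vehicle and the KEAP1 KO/vehicle values on the side of WT/vehicle. WT/vehicle against media/vehicle gave 591 higher (4.33%) and 412 lower genes (3.02%; 7.34% called). Of the 770 genes higher with KEAP1 KO CM, 425 were among the 591, which is 55.2% of the first list and 71.9% of the second. Of the 435 lower genes, 224 were among the 412, which is 51.5% and 54.4%. None of the 1205 was called in the opposite direction there by limma, also at an unadjusted p under 0.05.

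With the triterpenoid CDDO-Me at 100 nM in place of vehicle, the 2 media again gave different BMDMs. Under the same test 2858 genes (20.9%) differed, 1660 higher (12.2%) and 1198 lower (8.77%) with KEAP1 KO CM. Without any scaling of the libraries these were 1245 higher and 2078 lower, with the median of all genes at -0.14 in place of -0.02. The difference between the media itself changed with the drug in 1734 genes (12.7%), upward in 1021 (7.47%) and downward in 713 (5.22%). The third NRF2 KO library with CDDO-Me also stood apart. It listed 16299 genes above 0, against 17968 to 18993 in the other CDDO-Me libraries of the 2 media. Its correlations with its own group were 0.939 and 0.941, against 0.99 for the other pair. Without it, 2801 of 13618 genes differed between the media, and the difference changed with the drug in 2091.

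Retnla, Chil4 and Rnase2a were listed at 0 with CDDO-Me in all 6 libraries of both media, and Arg1 was at or under 0.427 TPM. Of the 29 alternative activation genes, 4 were higher and 7 lower with KEAP1 KO CM then, and of the 25 sterol genes 2 were higher and 8 lower. Of all tested genes 12.2% were higher and 8.77% lower, and the difference changed with the drug in 12.7%. These shares are the background for the list counts with CDDO-Me. Ccl8 kept a difference, at 64.3, 75.3 and 48.8 TPM against 1.83, 1.61 and 0.91 TPM (log2 fold change 4.83, adjusted p = 1.8e-09), as did Ccl12 (4.04, adjusted p = 6.3e-07) and Pdcd1lg2 (4.28, adjusted p = 1.1e-09). For these 3 genes the change of the difference with the drug did not pass (adjusted p = 0.52, 0.8 and 0.34). Of the 38 interferon-induced genes, 37 were higher with KEAP1 KO CM under CDDO-Me, with a median log2 fold change of 3.24, and the change of the difference with the drug was called in 36. Of the 17 MHC class I genes, 16 were higher under the drug.

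**Figure D5:**
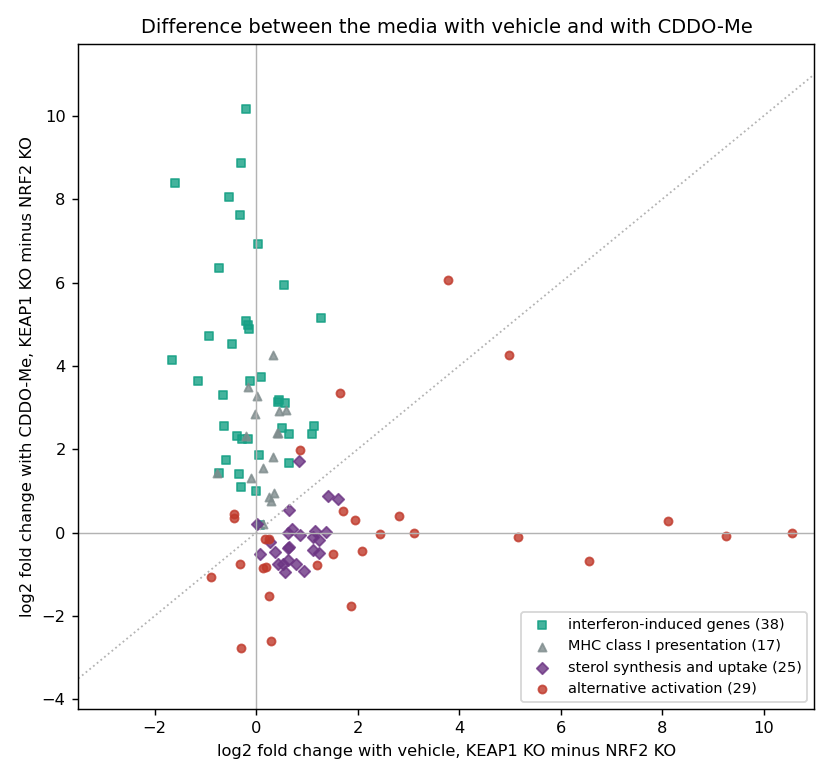
Each point is a gene of 4 lists, with its log2 fold change between KEAP1 KO and NRF2 KO CM with vehicle on the horizontal axis and with CDDO-Me on the vertical axis, and a dotted line where both are equal. Alternative activation genes spread along the horizontal axis up to 10.56 (Retnla) and interferon-induced genes along the vertical axis, with a median of 3.24.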

How the data were processed

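Poly-A RNA from 24 BMDM libraries was sequenced by a service provider, and the authors quantified it with kallisto on GRCm39 transcripts. The deposited values are TPM per gene name (35770 names), with no read counts, so depth is unknown. 1 row without a gene name held 0.0199% to 0.0635% of a library and was left out. TPM were scaled by TMM factors, log2(TPM + 1) was fitted by limma 3.58.1 (R 4.3.3) with 1 mean per group over all 24 libraries (16 residual degrees of freedom, variance trend), and genes over 1 TPM in at least 3 libraries were tested. Tests were two-sided with Benjamini-Hochberg adjustment, and the threshold was 0.05. The fit was also run on simulated data, drawn independently with the same spread per gene in every library. These held no outlying library and no pairing, so they do not test the fit under either. Per-library values in the text are deposited TPM. Named genes were up to 12 largest rises and falls with mean TPM of at least 5 and no overlap, up to 6 members per list by p, and genes named by the study. Some genes are not reported here by name. The genes, lists and comparisons were chosen with earlier results of these data known. Gene coordinates are from GENCODE (GRCm39), and promoter sequences are from RefSeq (GRCm38.p6). Alternatives covered scaling, filter, pseudocount, trend, array weights, replicate block, the libraries fitted and leaving out each replicate.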

Additional observations from a re-analysis of the deposited data

Results flagged for a closer look

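For 66 of the genes named here, the difference between KEAP1 KO and NRF2 KO CM with CDDO-Me differed from that with vehicle (interaction term of limma, adjusted p at most 0.042, 3 libraries in each of 4 groups). The values below are the log2 fold change with CDDO-Me minus that with vehicle; 39 were below 0 and 27 above. The vehicle difference, by which many of these genes were chosen, enters this value with the opposite sign, so values of opposite sign to it are partly fixed by the choice. No explanation was weighed for them. In groups of 3 libraries no library was tested as an outlier.

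Among genes of alternative activation and the other largest rises, the interaction was -10.56 for Retnla, -9.32 for Arg1, -7.84 for Chil3, -7.38 for Rnase2a, -7.23 for Mgl2, -5.01 for Scn3a, -4.56 for Tmem26, -4.28 for Tarm1, -3.64 for Mrc1, -3.12 for Chil4, -2.46 for Cdh1, -2.41 for Clec10a and -1.02 for Pparg. Those of Retnla, Chil4 and Rnase2a, listed at 0 in 3 of the 4 groups, depend on the pseudocount. In cytokine signalling it was -4.37 for Il13ra2, -1.76 for Cish and -1.47 for Socs2, and it was 2.28 for Socs1, 1.46 for Il13ra1 and 1.12 for Il4ra. Among chemokines it was -5.33 for Ccl9, -5.27 for Ccl24, -2.88 for Ccl6 and -1.21 for Ccl22. Ccl9 itself was lower with KEAP1 KO CM under CDDO-Me, at 37, 25.5 and 22.2 TPM against 297, 261 and 374 TPM.

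Among lipid and carbon metabolism genes, the interaction was -1.74 for Acat2, -1.36 for Fdps, -1.33 for Fasn, -1.24 for Dhcr7, -1.15 for Scd2, -0.72 for Srebf1, -0.57 for Acly, -0.51 for Srebf2, -0.5 for Pdha1 and -0.45 for Slc25a1. It was -2.81 for the arginine carrier Slc7a2 and -4.17 for Tfrc, whose level under CDDO-Me was 18.2, 17.2 and 13.8 TPM with KEAP1 KO CM and 122, 115 and 73.1 TPM with NRF2 KO CM. Mrc1, Tfrc and Ccl9 were therefore higher with KEAP1 KO CM under vehicle and lower under the drug. Other negative values were -2.87 for Ptgs1, -2.77 for Fcgr2b, -2.14 for Itgax, -1.9 for Cdkn1c, -0.84 for Gstm1, -0.73 for Tkt and -0.64 for Tlr4.

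Positive values were found for interferon-induced and presentation genes: 9.98 for Cxcl10, 5.8 for Ifit3, 4.8 for Ifit1, 3.89 for Zbp1, 3.64 for Irf1, 2.72 for Irf7, 2.67 for H2-DMa, 1.72 for Stat2 and 1.26 for Psmb10. They were 3.22 for Cd274, 2.44 for Icosl and 1.94 for Cd40 among ligands of T cells, and 2.89 for Nos2. The interaction was 0.95 for the thromboxane synthase Tbxas1. Genes that fell with KEAP1 KO CM under vehicle gave 4.04 for Clec12a, 2.97 for Aif1, 2.94 for Clec4e, 2.33 for Nfkbiz, 2.19 for Fcrl1, 2.03 for Kit, 1.72 for Tlr2, 1.49 for Pcp4l1, 1.22 for Adra1a and 1.18 for Cd4. Clec12a was higher with KEAP1 KO CM under CDDO-Me, at 196, 208 and 292 TPM against 73.1, 81.2 and 116 TPM.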

How the results depend on the processing

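Of the 1205 genes called between KEAP1 KO/vehicle and NRF2 KO/vehicle BMDMs, the count was within 1.5 times of that number under RLE, no or quantile scaling, both other filters, both other pseudocounts and limma without a trend (1099 to 1239). It was 3755 with array weights, 2186 with a replicate block, 1842 without the third library of each NRF2 KO group, 702 in the fit of the 12 vehicle libraries and 129 in that of the 6 compared libraries. Leaving out 1 replicate gave 736 to 1956, with 736, 804 and 792 without the first, the second and the third KEAP1 KO/vehicle library and 1956, 1861 and 998 without the NRF2 KO/vehicle libraries. The 3338 genes without overlap became 5945 without the third library of each NRF2 KO group, and 3873 to 5952 without 1 replicate, where fewer libraries must be separated. With CDDO-Me, the 2858 genes became 5521 with array weights, 4622 without those 2 libraries and 1540 in the fit of the compared groups alone, and 2139 to 2801 without 1 replicate. The 1734 genes whose difference changed with the drug became 4412, 2896 and 968 in the same settings, and 1444 to 2338 without 1 replicate. Without scaling they were 836 higher and 1107 lower, against 1021 and 713, and the median of all genes was -0.18. The cause of these shifts was not tested beyond the settings themselves.

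Same-numbered KEAP1 KO and NRF2 KO libraries deviated from their group means with correlations of 0.07, 0.19 and 0.15, and each correlated best with its own number. Library names carry the same set of numbers in every group. Fibroblast and stroma markers summed to 2570, 3130 and 1610 TPM with KEAP1 KO CM and to 1960, 4300 and 1360 TPM with NRF2 KO CM. In media/vehicle and WT/vehicle the second library was also highest and the third lowest. The labels do not say that libraries of 1 number share a preparation, and 1 correlation was under 0.1, so the main fit took no pairs. Whether they share a preparation is unknown, and the main p-values ignore any such pairing. With the replicate block all 84 called genes that the text names were called, as were Bach1 (adjusted p = 0.033) and Irf7 (0.046), which had not passed. The 84 kept their direction in every alternative run, and 37 their call in every one that tested them; 38 were called in the fit of the 6 compared libraries, 76 in that of the 12 vehicle libraries and 78 without the third NRF2 KO/vehicle library. With no read counts, low levels carry an unknown counting error, and 3 libraries per group limit what small differences could be seen.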

Other observations

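Of 15 prostaglandin and leukotriene genes tested, 4 rose with KEAP1 KO CM (26.7%, against 5.64% of all tested genes) and 2 fell (13.3%, against 3.18%), and 1 fell without the first or the second KEAP1 KO/vehicle library or the second NRF2 KO/vehicle library. Besides Ptgs1, Tbxas1, the thromboxane synthase, was at 182, 162 and 186 TPM with KEAP1 KO CM and at 111, 103 and 54.2 TPM with NRF2 KO CM (log2 fold change 1.01 ± 0.17, adjusted p = 0.00078 by limma). Hpgds, which makes prostaglandin D2, was at 94.6, 78.8 and 80.2 TPM against 160, 141 and 267 TPM (log2 fold change -1.14 ± 0.23, adjusted p = 0.0029 by limma). The groups did not overlap for either enzyme, as for 24.4% of all tested genes.

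Of 21 angiogenic factors and receptors, 1 rose (4.76%, against 5.64% of all tested genes) and 3 fell (14.3%, against 3.18%), with 2 that rose without the second NRF2 KO/vehicle library and 1 or 2 that fell without 1 KEAP1 KO/vehicle library. The VEGF receptor Flt1 was at 6.35, 7.28 and 5.56 TPM with KEAP1 KO CM and at 0.425, 2.36 and 0.16 TPM with NRF2 KO CM (log2 fold change 2.03 ± 0.27, adjusted p = 4.7e-05 by limma). Kdr, the other main VEGF receptor, was at 1.42, 1.39 and 1.13 TPM against 4.23, 5.72 and 2.4 TPM (log2 fold change -1.1 ± 0.21, adjusted p = 0.0018 by limma). Kdr is also 1 of 4 endothelial markers, which summed to 17.6 to 30.8 TPM with KEAP1 KO CM. With NRF2 KO CM they summed to 8.13, 72 and 12.4 TPM, and the second library was also the highest of its group for Flt1 and Kdr. The part of endothelial cells in these values was not tested. Of 13 LXR and cholesterol efflux genes, 3 rose (23.1%, against 5.64%) and 2 fell (15.4%, against 3.18%). Without any 1 of the KEAP1 KO/vehicle libraries or the third NRF2 KO/vehicle library 1 rose, and without the first or second KEAP1 KO/vehicle library or the third NRF2 KO/vehicle library 1 fell. The cholesterol exporter Abca1 was at 23.5, 23 and 21 TPM against 36.1, 39.5 and 33.5 TPM (log2 fold change -0.7 ± 0.09, adjusted p = 2.2e-05 by limma). Tbxas1, Hpgds, Flt1, Kdr and Abca1 were not called in the fit of the 6 compared libraries alone.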
